A study of Homo sapiens with 4 samples.

Results

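The 10 genes described here mark or regulate the identity and differentiation of the intestinal epithelium. They are CDX1, CDX2, HNF4A, VIL1, VILL, CA2, MUC13, PHGR1, CEACAM5 and CEACAM6, picked by gene symbol from the 57746 genes listed, and all 10 symbols were found. The choice was made with their levels in these libraries known, so levels and folds of the 10 genes are given as a description and were not tested. RNA came from 4 human lines with 1 library each. SA was derived from soft agar colonies of DLD1 and is labelled mesenchymal. SPH was derived from colonospheres of DLD1 and is also labelled mesenchymal. METS was grown from a xenograft's lung metastasis and carries the label epithelial. DLD1, the parental colorectal cancer line, is labelled epithelial too. No treatment or engineered allele is given for any line, and all were kept in the same serum-containing medium. Levels are in RPKM, reads scaled to gene length and library size, a scale on which genes of different length can be compared. With 1 library per line the spread between cultures of a line is unknown, so the order of neighbouring levels has no replicate check.

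CDX1 and CDX2 are homeobox transcription factors that specify intestinal epithelium, and HNF4A is a nuclear receptor that maintains enterocyte gene expression with them. Maturing absorptive cells build a brush border of microvilli, whose actin bundles contain villin, the product of VIL1. They also carry carbonic anhydrase for ion transport, transmembrane mucins of the glycocalyx and CEACAM adhesion proteins on the luminal surface.

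Promoter sequence from RefSeq (GRCh38.p14) was available and used for 6 of the 10 genes, in 9 windows of 250 bases that end at a transcript start. CA2 was set aside by name before the search, so the counts of windows do not cover it. The windows of MUC13 and VILL are shown because these genes differed most between lines among the 6, and that of CDX2 because its level differed little. Capitals mark the letters of the CDX core TTTAT and of the HNF4 motif CAAAGTCCA, on either strand. Each window is written 5′ to 3′ on the strand of its gene.
MUC13 (chr3:124934752-124935001, minus strand): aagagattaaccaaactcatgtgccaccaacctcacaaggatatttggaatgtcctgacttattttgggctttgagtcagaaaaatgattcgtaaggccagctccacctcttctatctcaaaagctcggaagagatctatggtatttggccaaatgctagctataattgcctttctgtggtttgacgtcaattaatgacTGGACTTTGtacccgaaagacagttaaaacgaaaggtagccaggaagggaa
VILL (chr3:37987728-37987977, plus strand): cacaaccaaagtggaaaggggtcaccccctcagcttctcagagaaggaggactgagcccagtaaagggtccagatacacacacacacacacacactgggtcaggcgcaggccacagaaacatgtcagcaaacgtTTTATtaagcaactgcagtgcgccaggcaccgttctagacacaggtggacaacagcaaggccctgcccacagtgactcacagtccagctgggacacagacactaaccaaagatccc
CDX2 (chr13:27969316-27969565, minus strand): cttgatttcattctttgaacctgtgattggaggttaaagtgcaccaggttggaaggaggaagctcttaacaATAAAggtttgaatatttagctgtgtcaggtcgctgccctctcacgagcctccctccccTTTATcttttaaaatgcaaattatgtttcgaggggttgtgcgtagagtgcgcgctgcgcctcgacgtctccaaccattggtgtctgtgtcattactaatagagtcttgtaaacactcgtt
The MUC13 window held the HNF4 motif from 51 to 43 bases before the start, on the opposite strand, as did 0.325% of 35116 such windows of all genes. Among the 9 windows it was the 1 with that motif. The CDX core was found in 5 of the 9 windows, against 32.7% of all windows, and so is a common short word. It occurred at 2 places in the CDX2 window and at 1 place in the VILL window shown, which is the most upstream of 3 annotated starts. A match of letters is a description and does not show binding.

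CDX2 was the most abundant of the 10 genes in every line. It stood at 31.37 RPKM in SA, 35.99 in SPH, 27.58 in METS and 31.88 in DLD1. These levels ranked 1280th, 1089th, 1469th and 1283rd of all listed genes in those lines. The highest and lowest lines, SPH and METS, lay 0.37 apart on the scale of log2(RPKM + 1). HNF4A varied least of the 7 genes that reached 1 RPKM in a line, at 6.40 RPKM in SA, 6.22 in SPH, 6.14 in METS and 6.39 in DLD1, a range of 0.05 on the same log2 scale. Neither gene thus separated the lines labelled mesenchymal from those labelled epithelial. The table has 1 value per gene, so transcripts from the 2 HNF4A starts in RefSeq cannot be told apart.

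CDX1, the paralogue of CDX2, was close to the limit of measurement. It stood at 0.04 RPKM in SA, 0.06 in SPH, 0.09 in METS and 0.06 in DLD1, or about 3.40, 5.58, 7.97 and 5.65 reads. These read numbers use exon lengths from GENCODE 29 and a depth estimated from the step size of low values, and are approximate. At such numbers an order of the lines cannot be read.

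VIL1, which encodes the villin that bundles microvillar actin, was highest in METS. Its level was 1.89 RPKM in SA, 1.41 in SPH, 3.35 in METS and 1.39 in DLD1. METS lay 0.86 above DLD1 on the log2(RPKM + 1) scale, short of the 2-fold rule, while the ratio of the RPKM values was 2.41. With a pseudocount of 0.1 in place of 1 the log2 difference was 1.21, past that rule. SPH and DLD1 were nearly level.

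VILL, the villin-like member of the gelsolin superfamily, had another order. It stood at 2.29 RPKM in SA, 1.65 in SPH, 6.40 in METS and 5.44 in DLD1. SA and SPH were thus the low lines, METS and DLD1 the high ones, and the classes did not overlap. Against DLD1 the log2(RPKM + 1) difference was -0.97 in SA, -1.28 in SPH and 0.20 in METS. VIL1 and VILL share no stretch of 50 bases in GENCODE 29 transcripts, so reads of that length would not be confused between them.

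CA2, the cytosolic carbonic anhydrase of colonocytes and many other cells, split the lines in the same way. Its level was 5.16 RPKM in SA, 5.05 in SPH, 10.69 in METS and 12.29 in DLD1. SA and SPH were nearly level with each other, and both lay below METS and DLD1. The differences from DLD1 on the log2(RPKM + 1) scale were -1.11 in SA, -1.14 in SPH and -0.19 in METS.

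MUC13, a transmembrane mucin of the intestinal glycocalyx, was lowest in METS. It stood at 9.27 RPKM in SA, 12.11 in SPH, 1.74 in METS and 8.34 in DLD1. METS lay below each of the other lines, with log2(RPKM + 1) differences of -1.91 from SA, -2.26 from SPH and -1.77 from DLD1. SPH was the highest line. The METS level corresponds to about 307 reads, so it does not rest on a handful of reads.

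PHGR1, a small proline-, histidine- and glycine-rich protein gene of gastrointestinal epithelium, had the widest range of the 10 genes. Its level was 0.35 RPKM in SA, 0.42 in SPH, 6.48 in METS and 0.12 in DLD1. METS stood alone, and the other lines were all under 1 RPKM. These values correspond to about 15.9, 20.9, 307 and 6.05 reads in SA, SPH, METS and DLD1. The METS level was 54.0 times that of DLD1, a ratio whose denominator rests on very few reads, and the log2(RPKM + 1) difference was 2.74. METS thus held the highest PHGR1 and the lowest MUC13 of the 4 lines, although both encode products of the mucosal epithelium.

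CEACAM5, the carcinoembryonic antigen gene, and its neighbour CEACAM6 were almost silent. CEACAM5 is listed at 0 RPKM in SA and stood at 0.04 in SPH, 0.01 in METS and 0.06 in DLD1. CEACAM6 stood at 0.01 RPKM in SA, 0.22 in SPH, 0.03 in METS and 0.04 in DLD1. SPH was the highest line for CEACAM6, with about 35.5 reads against 1.48 in SA, 4.62 in METS and 6.54 in DLD1. The genes are paralogues, and part of their reads may be shared with other genes. Of all stretches of 50 bases in GENCODE 29 transcripts, 16.4% of those of CEACAM5 and 6.99% of those of CEACAM6 also occur in transcripts of another gene. Most were shared with AC243967.1, at 529 of 570 for CEACAM5 and 112 of 210 for CEACAM6. Only 40 stretches were common to CEACAM5 and CEACAM6. None of the 10 other CEACAM genes listed reached 1 RPKM, the highest being CEACAM21 at 0.18 in SA.

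**Figure D1:**
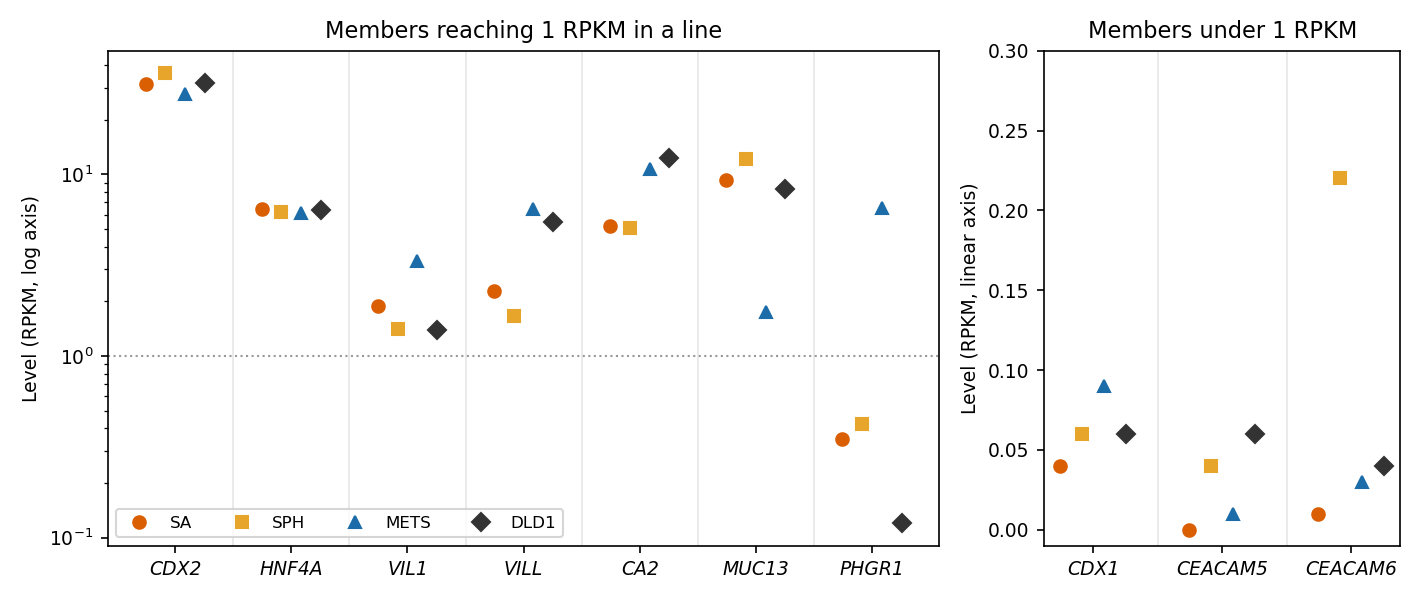
Levels of the 10 genes in SA, SPH, METS and DLD1, with 1 library per line. The left panel has a log axis in RPKM with a dotted line at 1, the right panel a linear axis in RPKM. CDX2 and HNF4A lie close together in the 4 lines, VILL and CA2 are low in SA and SPH, and METS stands apart for MUC13 (1.74 RPKM) and PHGR1 (6.48 RPKM).

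Of the 10 genes, 7 reached 1 RPKM in a line and 6 did so in all 4 lines. PHGR1 entered through METS alone, and its place among the 7 is set by that level. Calls were made at 2-fold on the log2(RPKM + 1) scale among genes of at least 1 RPKM in the higher line. In SA against DLD1, CA2 was the 1 member past 2-fold, and it was lower, beside 0.238% of 11367 genes that were lower by that rule and 0.677% past it in either direction. In SPH against DLD1, CA2 and VILL were past 2-fold and lower, beside 0.542% of 11446 genes that were lower and 1.26% past the rule in either direction. In METS against DLD1, PHGR1 was past 2-fold and higher and MUC13 past it and lower, beside 0.523% of 11275 genes higher and 0.896% lower. Nothing is read from these counts, since the 10 genes were chosen with the same values in view. The comparisons with DLD1 share its single library.

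**Figure D2:**
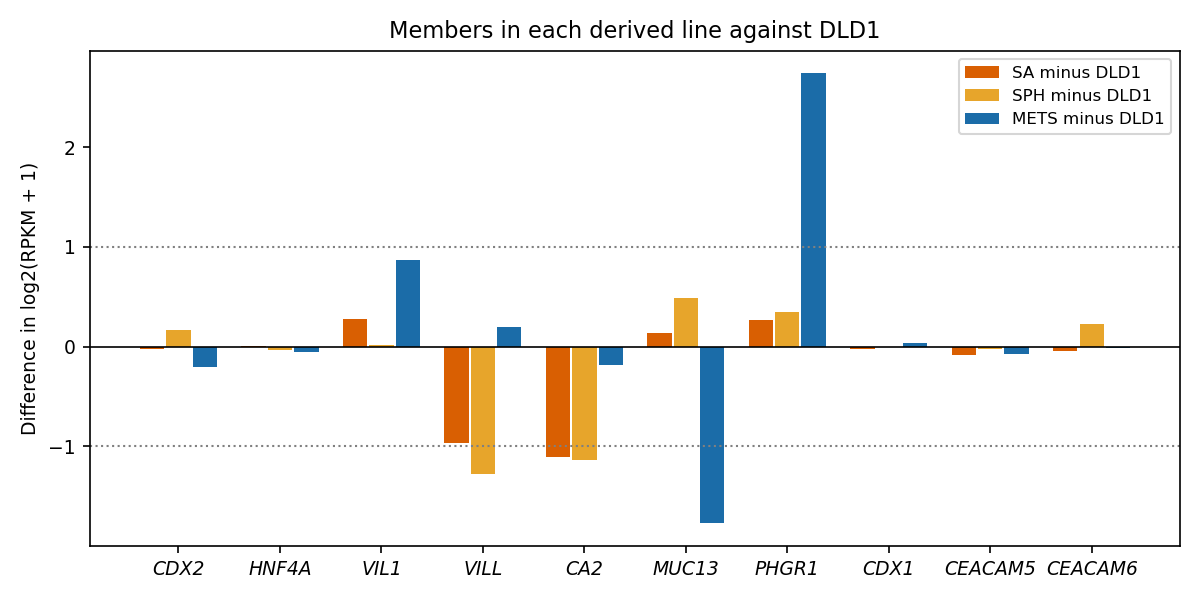
Difference in log2(RPKM + 1) of SA, SPH and METS from DLD1 for each of the 10 genes, 1 library per line. Dotted lines mark 2-fold; CA2 passes it in SA, CA2 and VILL in SPH, and MUC13 and PHGR1 in METS, while VILL in SA lies just short at -0.97.

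METS was also set against each line labelled mesenchymal. VILL was higher in METS than in SA by 1.17 and than in SPH by 1.48 on the log2(RPKM + 1) scale. PHGR1 was higher by 2.47 and 2.40 and MUC13 lower, at -1.91 and -2.26. CA2, at 0.92 and 0.95, lay just under the 2-fold rule. The rule was thus passed by VILL and PHGR1 upwards and by MUC13 downwards in each comparison. Beside this, 0.701% of genes were higher and 1.23% lower in METS against SA, and 0.948% higher and 1.7% lower in METS against SPH. SPH and SA were the most alike pair, with no member past 2-fold where 0.262% of 11431 genes were. At least 2-fold above every other line, METS held 0.249% of 11664 genes, PHGR1 among them, and at least 2-fold below every other line 0.429%, with MUC13 among them.

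By label, SA and SPH form the mesenchymal class and METS and DLD1 the epithelial class. Among 11262 genes of at least 1 RPKM in 2 or more libraries, 24.7% lay higher in both mesenchymal lines than in both epithelial lines and 13.1% lower. Of the members on that minimum, VILL and CA2 lay lower in both mesenchymal lines, MUC13 lay higher, and CDX2, HNF4A and VIL1 overlapped. The class differences in mean log2(RPKM + 1) were -1.23 for VILL, -1.03 for CA2 and 1.20 for MUC13. For MUC13 the METS library decides the size, since without METS the difference was 0.31. For VIL1 the class difference was -0.29, for CDX2 0.17 and for HNF4A 0.01. Without METS these were 0.14 for VIL1, with the sign turned, and 0.07 for CDX2, and without DLD1 they were -0.72 for VIL1 and 0.28 for CDX2. Without SPH they were -0.16 for VIL1 and 0.08 for CDX2, and without SA CDX2 was 0.27.

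Other genes of intestinal epithelium were taken from lists of regulators, brush border parts, absorptive and secretory products and related families. On these genes the class comparison was run with limma-trend over all 11262 genes with Benjamini-Hochberg adjustment. None of the 69 listed genes that are not members passed adjusted p 0.05, where 0.355% of all genes did. At an unadjusted p under 0.05 there were 14 of the 69, against 8.65% of all genes, and limma without trend also gave 0 past adjustment. These p-values rest on how far the lines within a class differ, since no culture was repeated. The lists were chosen with earlier results of these data known, so nothing is read from the counts of listed genes. With a library left out, a class keeps 1 line, which is then assumed to vary like the others. For KRT20 the class difference was then 1.62 without DLD1 and -2.32 without METS.

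**Figure D3:**
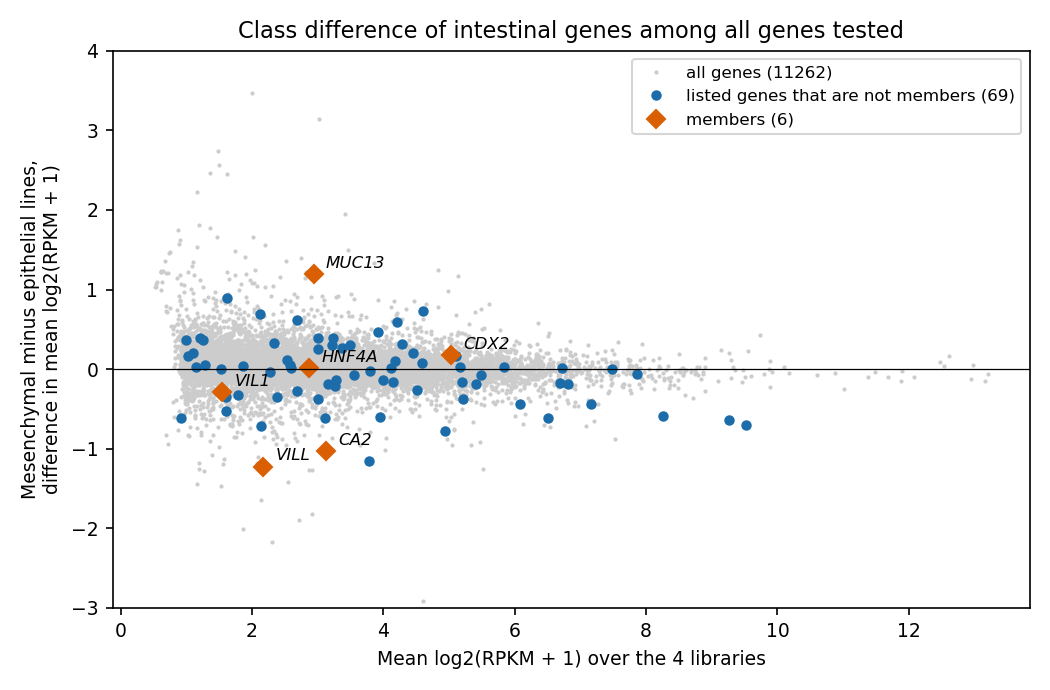
Class difference (mean of SA and SPH minus mean of METS and DLD1, in log2(RPKM + 1)) against the mean level over the 4 libraries. Grey points are all 11262 genes tested, blue points 69 listed genes that are not members and orange diamonds the 6 members that met the minimum; 1 gene lies outside the drawn range. MUC13 lies at 1.20, CA2 at -1.03 and VILL at -1.23.

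Among the regulators, 16 of 26 listed transcription factors reached 1 RPKM in a line. In METS against DLD1, 12 of 15 measured were lower and 3 higher, with a median log2(RPKM + 1) difference of -0.20 beside -0.03 over all genes, of which 6187 of 11275 were lower. By the 2-fold rule 1 of the 15 was lower, beside 0.896% of all genes. That factor was EHF, an ETS factor of epithelial cells, at 20.68 RPKM in SA, 22.82 in SPH, 9.05 in METS and 21.54 in DLD1. FOXA2, a pioneer factor of endodermal tissues, stood at 3.77 RPKM in SA, 5.35 in SPH, 1.44 in METS and 3.78 in DLD1. ELF3, another epithelial ETS factor, stood at 9.63 RPKM in SA, 13.84 in SPH, 23.66 in METS and 13.64 in DLD1. METS was thus the extreme line for all of EHF, FOXA2 and ELF3, low for EHF and FOXA2 and high for ELF3. ISX, an intestine-specific homeobox gene and target of CDX2, lay between 0.61 RPKM in METS and 1.51 in SPH. None of the listed factors passed 2-fold in SA or SPH against DLD1, with medians of -0.10 and 0.04 beside 0.03 over all genes in each. A lean downwards was not particular to METS. In SA against DLD1, 13 of 16 factors were lower and 3 higher, where 5049 of 11367 genes were lower. In SPH 7 were lower and 9 higher, where 4991 of 11446 genes were lower.

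Of 23 listed brush border genes other than the villins, 16 reached 1 RPKM in a line. MYO1A, USH1C, CDHR2, CDHR5, MYO7B, ANKS4B and TMIGD1 did not. The highest of these was MYO1A, at 0.44 RPKM in SA and DLD1. In METS against DLD1, 2 of 15 were at least 2-fold lower and none higher, where 0.896% of all genes were lower. FSCN1, the actin bundler fascin, was on the list but is not specific to the brush border. It stood at 23.93 RPKM in SA, 23.38 in SPH, 12.75 in METS and 39.10 in DLD1. EPS8, which caps actin at microvillus tips, stood at 16.11 RPKM in SA, 17.45 in SPH, 7.64 in METS and 18.05 in DLD1. METS was the low line for both, in contrast to VIL1. The membrane linker ezrin, EZR, differed by -0.44 ± 0.11 between the classes (SE, adjusted p = 0.34, limma-trend), with 126.89 and 116.89 RPKM in SA and SPH and 172.07 and 159.00 in METS and DLD1. MISP, an actin-binding protein of the brush border rootlets, ran alongside at 61.54 and 52.60 RPKM against 79.65 and 75.16. ESPN, the bundling protein espin, did not exceed 1.14 RPKM, its level in SPH.

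The rest of the gelsolin superfamily can be set beside VIL1 and VILL. CAPG, an actin-capping member, stood at 5.59 RPKM in SA, 6.45 in SPH, 11.51 in METS and 8.27 in DLD1, in the same class order as VILL. Its class difference was -0.62 ± 0.17 (SE, adjusted p = 0.38, limma-trend). Gelsolin itself, GSN, was highest in METS as VIL1 was, at 5.17 RPKM in SA, 7.04 in SPH, 9.92 in METS and 6.64 in DLD1. SCIN stood at 0.83, 0.56, 0.57 and 1.34 RPKM in SA, SPH, METS and DLD1 and FLII at 43.03, 41.91, 37.99 and 52.85, both with DLD1 highest. Within that family VILL alone passed 2-fold against DLD1, in SPH. VIL1 and the other listed members did not do so in any derived line.

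Among 14 other carbonic anhydrases, CA11 and CA13 reached 1 RPKM in a line. CA13, whose gene lies next to that of CA2 among expressed genes of chromosome 8, stood at 0.68 RPKM in SA, 0.40 in SPH, 1.49 in METS and 1.21 in DLD1. It had the same class order as CA2, with a class difference of -0.61 ± 0.15 (SE, adjusted p = 0.34, limma-trend). CA11 did not follow, at 3.76 RPKM in SA, 5.74 in SPH, 3.04 in METS and 4.01 in DLD1.

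Most products of fully differentiated enterocytes were at or near 0 in the 4 lines. Of 34 listed absorptive genes 6 reached 1 RPKM in a line. The sucrase-isomaltase gene SI and the fatty acid binding protein gene FABP1 are listed at 0 in all lines, and the chloride exchanger SLC26A3 did not exceed 0.01 RPKM. KRT20, a keratin of differentiated colonocytes, stood at 4.06 RPKM in SA, 3.18 in SPH, 0.50 in METS and 21.92 in DLD1, and was past 2-fold in each derived line. Its class difference depends on which epithelial line is kept, being 1.62 without DLD1 and -2.32 without METS. DPP4, a brush border peptidase, stood at 1.28 RPKM in SA, 2.11 in SPH, 0.38 in METS and 1.98 in DLD1, with METS lowest as for MUC13. The bile acid transporter subunit gene SLC51B and the glucose transporter gene SLC5A1 were highest in SPH, at 2.34 and 1.23 RPKM, against 0.90 and 0.37 in SA, 0.53 and 0.06 in METS and 0.41 and 0.15 in DLD1.

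**Figure D4:**
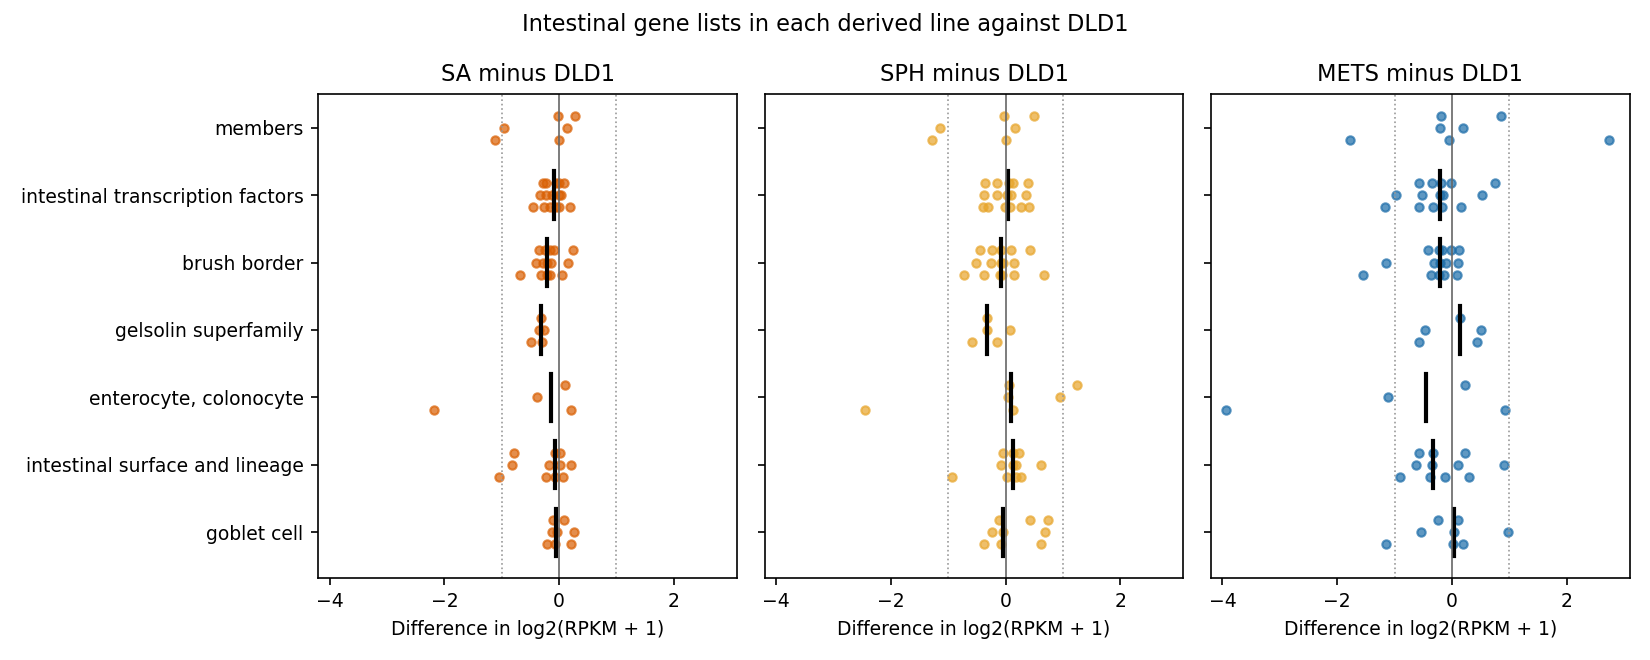
Difference in log2(RPKM + 1) of SA, SPH and METS from DLD1 for genes of 7 lists, each point a gene of at least 1 RPKM in SA, SPH or METS or in DLD1, and black bars the medians of the lists other than the members. Dotted lines mark 2-fold. Most genes lie within it in all 3 panels, and points in the METS panel reach from KRT20 at -3.93 to PHGR1 at 2.74.

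Other mucins did not follow MUC13. Of 12 found by name, 3 reached 1 RPKM in a line. MUC5AC, a secreted mucin best known from stomach and airway, stood at 10.51 RPKM in SA, 6.34 in SPH, 31.61 in METS and 11.90 in DLD1. METS was its highest line, where MUC13 was lowest. MUC5AC is repetitive and lies beside related mucins, so its reads are uncertain. The goblet cell mucin MUC2 did not exceed 0.06 RPKM, while MUC1 and MUC20 stayed between 1 and 2.55. Of 21 further goblet cell genes 9 reached 1 RPKM. AGR2, a disulfide isomerase needed for mucin folding, stood at 78.17 RPKM in SA, 67.78 in SPH, 157.92 in METS and 79.76 in DLD1. SYTL2, a vesicle trafficking protein gene, stood at 7.97, 6.16, 2.50 and 6.78 RPKM in SA, SPH, METS and DLD1 and was the 1 of 8 measured goblet cell genes past 2-fold in METS against DLD1, where it was lower, beside 0.896% of all genes. The trefoil factor gene TFF3 was highest in SPH at 12.45 RPKM, against 6.94 in SA, 7.44 in METS and 7.33 in DLD1, and REG4 was likewise highest there at 1.58, against 0.45, 0.01 and 0.69.

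The surface genes of the intestinal lineage with the widest range over the lines were CDH17, TSPAN1, FUT3 and PRSS8. CDH17, the liver-intestine cadherin and a known CDX2 target, stood at 26.15 RPKM in SA, 34.98 in SPH, 14.18 in METS and 22.51 in DLD1. This is the line order of MUC13, with SPH highest and METS lowest, and the class difference was 0.73 ± 0.24 (SE, adjusted p = 0.48, limma-trend). TSPAN1, a tetraspanin, was highest in METS at 54.31 RPKM, against 16.05 in SA, 31.36 in SPH and 28.41 in DLD1. FUT3, a fucosyltransferase of the Lewis antigens with close paralogues, stood at 1.42, 1.63, 1.66 and 3.99 RPKM in SA, SPH, METS and DLD1. PRSS8, the membrane protease prostasin, was lowest in SA at 14.92 RPKM, against 26.27 in SPH, 21.27 in METS and 27.26 in DLD1. The lineage markers GPA33 and LGALS4 stayed under 1 RPKM in all lines.

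The labelled cell type was checked against its markers. Of 10 markers of colorectal epithelium 8 reached 1 RPKM, and the summed level of the 10 ran from 1640 RPKM in SA to 2794 in METS. Most of that sum came from KRT8, KRT18 and KRT19, at 1084, 864.7 and 437.6 RPKM in METS. METS was the highest line for these keratins and EPCAM, but the lowest for KRT20, CDH17, GPA33, LGALS4 and CDX2. CDH1 was highest in DLD1, at 115.27 RPKM, against 94.47 in SA, 97.33 in SPH and 102.67 in METS. EPCAM stood at 222.22 RPKM in SA, 231.1 in SPH, 262.59 in METS and 212.2 in DLD1. The sum therefore does not rank the lines by intestinal identity. Whether the lines match their labels mesenchymal and epithelial was not checked with these markers. Markers of enteroendocrine and Paneth cells were absent at this minimum, with 0 of 17 and 0 of 8 reaching 1 RPKM, and of 9 tuft cell genes IL17RB alone did. Fibroblast markers summed to between 0.22 and 0.49 RPKM per line, with DCN and PDGFRA listed at 0 throughout. Immune markers summed to between 0.79 and 1.76 RPKM, with PTPRC and CD3E at 0, and CD14 was the 1 marker of 7 to reach 1 RPKM. Endothelial markers summed to between 1.06 and 1.36 RPKM, with CDH5 and KDR at 0 and CLDN5 as the 1 of 4 to reach that minimum. Lung epithelium markers summed to 0.33 RPKM in SA, 0.29 in SPH, 1.19 in METS and 0.68 in DLD1, of which NKX2-1 gave 1 in METS, while SFTPC is listed at 0 there. In RNA from a whole culture, fewer cells expressing a gene and less of its RNA per cell cannot be told apart.

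Genes whose differences from DLD1 in SA, SPH and METS lay nearest to those of a member were found by Euclidean distance over the 3 log2(RPKM + 1) differences among 10747 other genes. For VILL the nearest was CHAC1, which degrades glutathione, at a distance of 0.10, followed by LRFN1 and GALNT5. CHAC1 stood at 4.58 RPKM in SA, 3.2 in SPH, 11.44 in METS and 9.96 in DLD1. For CA2 the nearest were CST7, ZNF185 and the activin subunit gene INHBB, at distances of 0.25 to 0.33. MUC13 was nearest to PAPSS2, a sulfate-activating enzyme gene, at 0.27, then to the cytokine gene IL33. PAPSS2 stood at 39.56 RPKM in SA, 46.47 in SPH, 8.22 in METS and 36.10 in DLD1. PHGR1 had few genes near it, with 5 within a distance of 1 against 65 for MUC13, 165 for VILL and 221 for CA2, and its nearest, MEGT1, lay at 0.60. Large differences from DLD1 are rare among all genes, so such a count tends to fall as a member's own differences grow. The order of these counts is therefore not read as a trait of PHGR1. These distances rest on 4 libraries that share DLD1 as the baseline and carry no test.

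The nearest expressed genes along the chromosome, in RefSeq order, were also read. HEG1 and ITGB5 flank MUC13 on chromosome 3 and were lower in METS than in DLD1 by smaller amounts, at 1.22 against 3.36 RPKM and 20.10 against 30.90 RPKM. PAK6 and KNSTRN flank PHGR1 on chromosome 15, with log2(RPKM + 1) differences in METS of -0.18 and -0.18, beside 2.74 for PHGR1. CTDSPL and PLCD1 flank VILL on chromosome 3, and in SPH differed from DLD1 by -0.22 and 0.28, beside -1.28 for VILL. PDX1, the homeobox gene next to CDX2, stood at 7.42 RPKM in SA, 8.14 in SPH, 5.12 in METS and 7.79 in DLD1, with METS lowest as for CDX2.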

How the data were processed

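Total RNA of 4 lines was sequenced on libraries made with standard Illumina protocols, per the labels' protocols. A single table with a value for each gene and line was deposited, read here as RPKM from the values themselves. The submitters' processing notes name the build hg19. No source used here gives the aligner, the counting tool, the annotation or the strand setting, so overlapping genes cannot be told apart. Column sums ran from 275639 to 284919, 10920 to 11238 genes reached 1 RPKM per line, and mitochondrial genes held 25.5% to 26.6% of the sums. Depth, estimated from read steps of genes of 300 to 700 bases (GENCODE 29 exon lengths), was 48400000 reads in SA, 52900000 in SPH, 50400000 in METS and 53600000 in DLD1. It covers counting error only.

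Values were used as log2(RPKM + 1). Comparisons of 2 lines used a 2-fold rule over genes of at least 1 RPKM in the higher line, with no test. The class comparison used limma-trend (limma 3.58.1, R 4.3.3), tested on simulated data. The members and lists were chosen with earlier results of these data known. Genes named beside the members were up to 4 per list by range over the lines, genes past the class test, defining markers and the 3 nearest patterns per member; others named (SI, FABP1, SLC26A3, MUC2, GPA33, LGALS4, EZR, flanking genes) were chosen after their values were seen. MUC3A and PECAM1 were not matched by name. A few genes that the rule or lists name are not reported here. Alternatives were other pseudocounts, minimums, scaling and fold rules, and leaving out each library. Python 3.11.15 and pandas 2.3.3 were used.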

Additional observations from a re-analysis of the deposited data

How the results depend on the processing

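No member past 2-fold changed sign under any alternative. With a pseudocount of 0.1, genes past 2-fold numbered 211 (SA against DLD1), 350 (SPH against DLD1), 368 (METS against DLD1), 484 (METS against SA), 675 (METS against SPH) and 117 (SPH against SA), and members 2 in SA against DLD1 and 5 in METS against SPH. With a pseudocount of 5 they numbered 12, 24, 31, 46, 55 and 1 in that order, and members 0, 0 and 1 in SA, SPH and METS against DLD1. A minimum of 5 RPKM gave 29, 61, 88, 118, 155 and 16 genes. The 4-fold rule gave 9, 13, 14, 26, 37 and 1 genes, and members 0, 0, 1 and 1 in SA, SPH and METS against DLD1 and in METS against SA. Low values count for more with a smaller pseudocount by construction. The class test called 40 genes, and 26 with a pseudocount of 0.1, 5 with a minimum of 5 RPKM and 0 of 24097 with no filter (2208 at an unadjusted p under 0.05, limma-trend). Leaving out 1 library gave from 1 gene (without SA, and without SPH) to 288 (without DLD1), with 26 without METS, and from 0 to 12 listed genes that are not members; the lone line of a class was then assumed to vary like the others. The cause of these shifts was not tested. Median-of-ratios scaling kept every count within 1.5 times. No paired analysis was possible because each line has 1 library. Levels under 0.1 RPKM rest on few reads.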

Other observations

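Markers of other endodermal organs were mostly silent. Of 12 stomach genes MUC5AC alone reached 1 RPKM, and the gastrokine genes GKN1 and GKN2 are listed at 0 in all lines. Liver shares HNF4A with intestine, but of 10 hepatocyte genes only the protease inhibitor gene SERPINA1 reached 1 RPKM. SERPINA1, which is also made by intestinal cells, stood at 2.26 RPKM in SA, 4.36 in SPH, 1.06 in METS and 1.44 in DLD1. Its order, with SPH highest and METS lowest, was that of MUC13 and CDH17. The class difference was 0.90 ± 0.24 (SE, adjusted p = 0.38, limma-trend), higher in both mesenchymal lines than in both epithelial lines.

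IL17RB, a cytokine receptor gene on the tuft cell list, stood at 3.2 RPKM in SA, 1.84 in SPH, 5.34 in METS and 4.05 in DLD1, and its class difference did not pass adjustment (-0.71 ± 0.22, SE, adjusted p = 0.45, limma-trend).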
